A study of Mus musculus with 9 samples.

Results

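The PI3K-AKT-mTOR pathway, which carries insulin and growth factor signals into cell growth, was described gene by gene in cultured neonatal mouse ovaries. Its 31 genes were listed by name, from the ligand Igf1 to the translation factor gene Eif4e, with earlier results of these data known. Of these, 30 had at least 1 probe that could be matched to a gene, giving 50 probes out of 25649 on the array for 17889 genes. Prkaa1, a subunit of the energy sensor AMPK, was not analysed here. A total of 17 genes had 1 probe and 13 had several.

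Swiss mouse ovaries, excised on postnatal day 3 to 4, spent 96 hours (4 days) in culture. The medium held DMBA (7,12-dimethylbenz[a]anthracene, 50 nM), BaP (benzo[a]pyrene, 1 uM) or, for the controls, 0.01% of the solvent acetone. Both compounds are polycyclic aromatic hydrocarbons, formed in combustion, whose metabolites in the cell bind DNA. The DMBA dose was picked by the submitters in pilot cultures to give overt toxicity. All 3 groups, the acetone cultures included, were kept in medium with 5% fetal calf serum, 27.5 ug/ml insulin-transferrin-selenium, 25 ng/ml stem cell factor, 40 ng/ml basic fibroblast growth factor and 50 ng/ml leukemia inhibitory factor. Insulin and the growth factors feed into the PI3K pathway, so no group was free of its ligands. Each group held 3 Illumina mouse Ref-8 arrays, 9 in all. Whether a group's 3 arrays stand for different animals, pools or culture wells is not stated in the labels, and p-values therefore describe a spread between arrays that may be technical.

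In this pathway a ligand such as IGF1 or insulin binds a receptor tyrosine kinase, adaptor proteins recruit PI3K, and the lipid that PI3K makes brings PDK1 and AKT to the membrane. AKT inhibits the FOXO transcription factors and the TSC complex, and the loss of TSC activity releases mTORC1, which drives ribosome activity and translation. In the mouse ovary this route governs the activation of primordial follicles: FOXO3 in the oocyte nucleus keeps a follicle dormant, and its export after AKT phosphorylation starts growth. Much of this regulation is phosphorylation, which transcript arrays do not measure.

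Promoter stretches of 5 members are shown because they hold a binding motif of a factor tied to this question. The motifs were GTAAACA for FOXO factors, the insulin response element CAAAACAA, and TNGCGTG for the aryl hydrocarbon receptor, the receptor of both compounds. They were searched on both strands in the 250 bases before each RefSeq start site (GRCm38.p6), with 28 member genes matched. Capitals mark the matches, and each stretch is written 5′ to 3′ on the strand of its gene. Of 32851 promoters of all genes, 3.17% held the FOXO motif, 2.21% the insulin response element and 4.1% the aryl hydrocarbon receptor motif. The members had 43 of these promoters, of which 1, 2 and 3 held the motifs in that order, from as many genes. A match is a description of the sequence only.
Akt1, minus strand, chr12:112674989-112675122, with an aryl hydrocarbon receptor and then a FOXO motif: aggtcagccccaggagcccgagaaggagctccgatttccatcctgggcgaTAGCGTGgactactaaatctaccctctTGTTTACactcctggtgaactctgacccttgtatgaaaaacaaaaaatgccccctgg
Cdkn1b, plus strand, chr6:134920179-134920285, with an aryl hydrocarbon receptor motif: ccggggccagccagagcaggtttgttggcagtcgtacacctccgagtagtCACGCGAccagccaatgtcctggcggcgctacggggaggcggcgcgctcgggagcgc
Tsc2, minus strand, chr17:24632636-24632742, with an aryl hydrocarbon receptor motif: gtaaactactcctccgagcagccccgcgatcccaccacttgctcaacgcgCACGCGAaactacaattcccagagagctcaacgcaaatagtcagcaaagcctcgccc
Irs1, minus strand, chr1:82291440-82291522, with an insulin response element: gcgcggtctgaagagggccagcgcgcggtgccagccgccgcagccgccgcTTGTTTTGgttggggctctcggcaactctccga
Irs2, minus strand, chr8:11008930-11009017, with an insulin response element: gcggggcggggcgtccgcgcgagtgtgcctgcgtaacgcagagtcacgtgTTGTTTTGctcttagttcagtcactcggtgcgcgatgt

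Levels are given as log2 signal after background correction and quantile normalization. A probe was called where its difference had a limma p-value, adjusted over all probes by the Benjamini-Hochberg method, under 0.05. A floor of 6.12 was set at the 95th percentile of 1330 odorant and pheromone receptor probes, genes for which the ovary is not known. Of the member probes, 37 lay above the floor, covering 28 genes, beside 59.1% of all probes. Foxo3 and Rptor, the mTORC1 scaffold gene, had no probe above it.

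With DMBA, 0 of 50 member probes were called, where 1.04% of all probes were (267, with 205 higher and 62 lower). At an unadjusted p under 0.05 there were 7 member probes (14%), beside 10.5% of all probes. The DMBA and acetone arrays did not overlap in 6 member probes (12%), beside 16% of all probes. With BaP, 7 member probes were called (14%, 2 higher and 5 lower), where 9.88% of all probes were (1264 or 4.93% higher and 1270 or 4.95% lower). Among probes above the floor these shares were 18.9% and 16.4%, so the members stood near the share of the array as a whole. At an unadjusted p under 0.05 there were 17 member probes (34%) with BaP, beside 20.8% of all probes. The BaP and acetone arrays did not overlap in 17 member probes (34%), beside 24.1% of all probes, or in 45.9% of the members above the floor beside 33.1% of such probes. The median difference of the members was -0.015 with DMBA and -0.022 with BaP, against -0.0057 and -0.0013 over all probes. No member probe reached a 1.5-fold difference with either compound. Both comparisons share the acetone arrays.

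**Figure D1:**
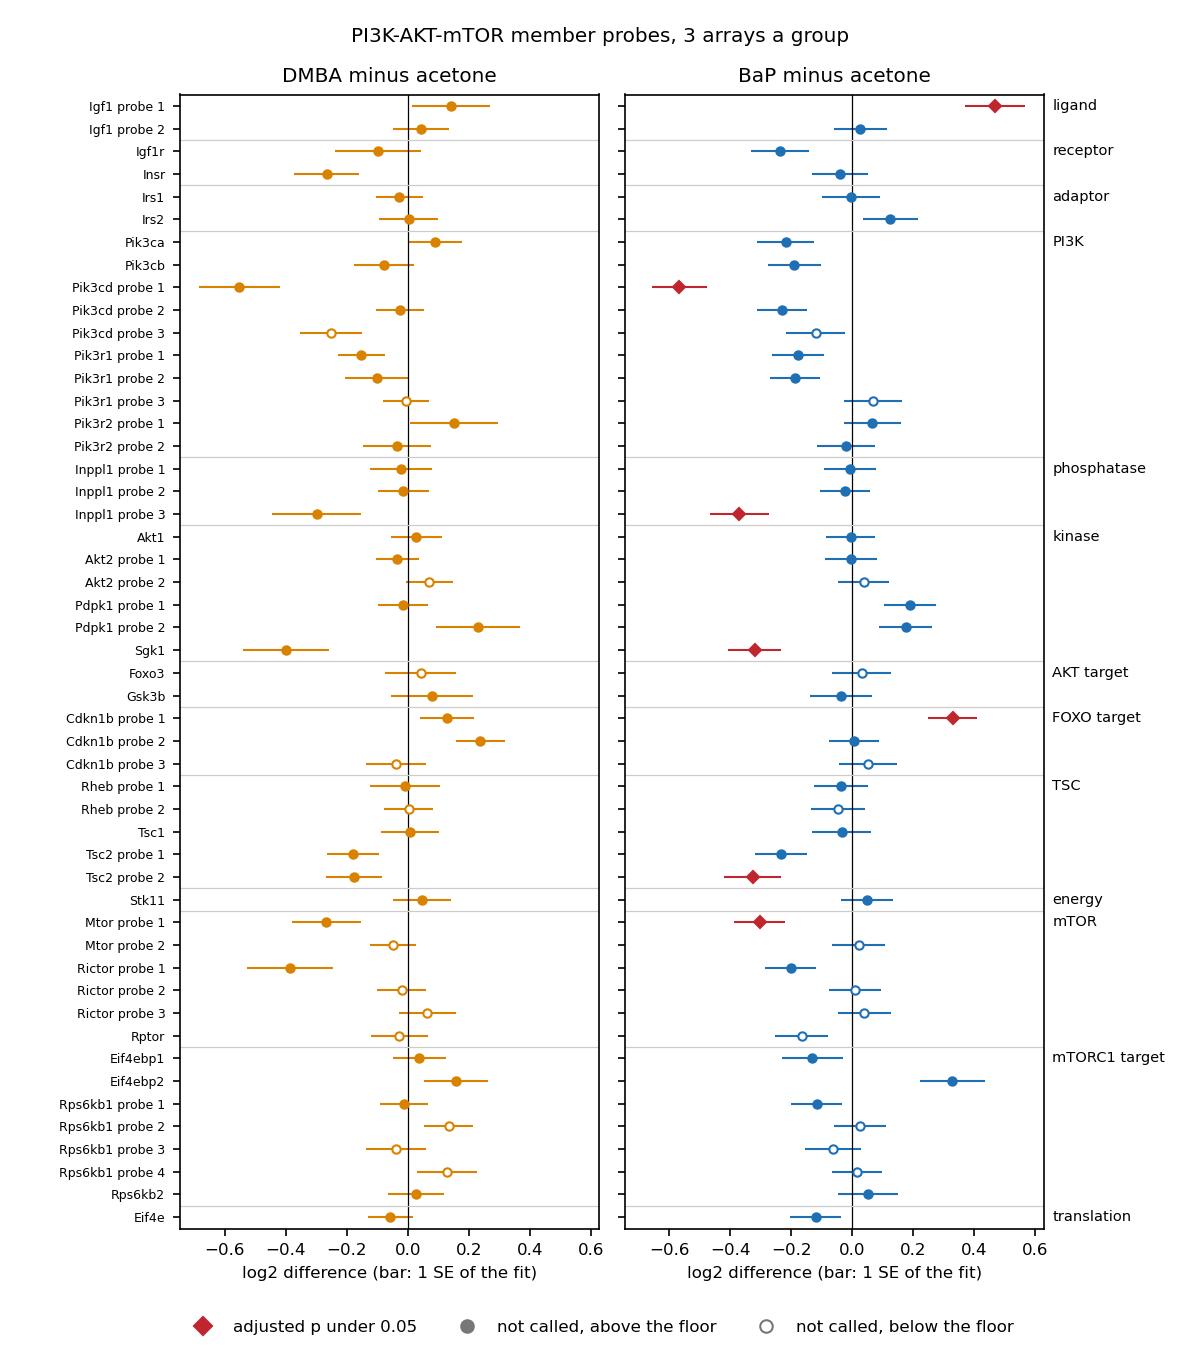
Difference of every member probe from acetone (log2, x axis) with DMBA (left) and BaP (right), grouped by role. Points are fitted differences and bars 1 standard error, from 3 arrays a group. The 7 red diamonds, all with BaP, passed the test, and the 13 open symbols lie below the floor. Igf1 fell to -0.02 when arrays were scaled to a common median.

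The scaling of the arrays bears on all of the BaP values. Median raw signals were 94.7 to 104.1 on the BaP arrays, 105.2 to 126 on the DMBA arrays and 105.8 to 133.7 on the acetone arrays. Scaled to a common median in place of quantile normalization, probes above the floor shifted by a median of -0.28 with BaP against acetone, and the members among them by -0.37. The calls then numbered 6483 (428 higher and 6055 lower), of which 18 were members, 0 higher and 18 lower. Stk11 and the brighter Pik3r2 probe, at 0.05 and 0.07 as reported, were among the calls at -0.44 and -0.41 under it. Where this scaling ends the call of a member, its value is given below.

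Of the array set, DMBA replicate 3 stood apart. Around its group mean its probes deviated with an SD of 0.149 (log2), where the other arrays had 0.078 to 0.119. Without it, 1130 probes were called with DMBA, among them 3 members, all lower: Pik3cd (-0.72), Inppl1 (-0.47) and Mtor (-0.41). The 10 oocyte markers were all above the floor, as were 7 of 10 granulosa markers, 10 of 10 stromal, 6 of 7 surface epithelium and 9 of 10 macrophage and leukocyte markers. In whole ovaries, fewer cells of a type and less RNA per cell cannot be told apart.

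Igf1 encodes the ligand of the IGF1 receptor, made in the ovary by granulosa cells of growing follicles. Its brighter probe read 8.62, 8.52 and 8.92 on the acetone arrays, 8.67, 8.74 and 9.08 on the DMBA arrays, and 9.28, 9.16 and 9.03 on the BaP arrays. All 3 BaP arrays lay above all 3 acetone arrays, while the DMBA arrays overlapped both groups. Igf1 rose with BaP by 0.47 (SE 0.10, 1.38-fold, limma adjusted p = 0.00191), and its difference with DMBA was 0.14 (SE 0.13, adjusted p = 0.8). Under median scaling the BaP difference turned to -0.02 (adjusted p = 0.898), above the -0.28 shift of the array under that scaling. The dimmer Igf1 probe, at a mean of 6.52, differed by 0.03 with BaP (SE 0.09).

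Neither receptor gene was called. Igf1r, the IGF1 receptor, read 8.09, 8.26 and 8.10 with acetone, 7.81, 7.92 and 8.43 with DMBA and 7.88, 8.13 and 7.72 with BaP. The groups overlapped, with differences of -0.10 (SE 0.14) and -0.24 (SE 0.10, adjusted p = 0.132). Without BaP replicate 2 the BaP difference of Igf1r was -0.35 (adjusted p = 0.0283). Insr, the insulin receptor, was read from a probe deposited under the name D630014A15Rik, updated here to Insr. That probe was at -0.27 with DMBA (SE 0.11, adjusted p = 0.4) and -0.04 with BaP. A further Insr row of the authors' deposited table could not be matched to a probe, and gives ratios of acetone over compound of 1.0461 for BaP (p = 0.140208) and 1.0028 for DMBA (p = 0.92267). The insulin receptor substrate genes Irs1 and Irs2, the adaptors between receptor and PI3K, ranged from -0.03 to 0.12 with either compound.

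The lipid kinase genes held the most changed member. Pik3cd encodes p110 delta, the catalytic subunit best known from leukocytes. Its brightest probe read 7.52, 7.55 and 7.68 with acetone, 6.77, 6.96 and 7.37 with DMBA, and 7.12, 7.09 and 6.85 with BaP. Both treated groups lay wholly below acetone, and DMBA replicate 3 was the treated array nearest to it. Pik3cd fell with BaP by 0.57 (SE 0.09, 1.48-fold, limma adjusted p = 8.03e-05). This call held under all 13 alternatives tried. With DMBA the same probe was at -0.55 (SE 0.13, 1.47-fold, adjusted p = 0.089). That difference passed with all 9 arrays in a single fit (adjusted p = 0.0347) and without DMBA replicate 3 (adjusted p = 7.27e-06). A second probe, near the floor at 6.30, was at -0.23 with BaP (SE 0.08, adjusted p = 0.0724) and -0.02 with DMBA.

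Cell type markers were also called with BaP, beside 9.88% of all probes and 16.4% of those above the floor. Of 10 macrophage and leukocyte markers, 7 fell and 0 rose with BaP, while 0 fell and 2 rose (C1qb and C1qc) with DMBA. Their mean log2 level per array was 7.99 to 8.13 with acetone, 8.17 to 8.26 with DMBA and 7.47 to 7.57 with BaP. With DMBA, Pik3cd was at -0.55 and was not called (limma adjusted p = 0.089). Of 7 surface epithelium markers, 4 fell and 0 rose with BaP, with a mean level of 8.02 to 8.13 against 8.29 to 8.31 with acetone, and 1 rose with DMBA. With BaP, 2 of 10 oocyte markers rose and 3 fell, 1 of 10 granulosa markers rose and 2 fell, and 2 of 10 stromal markers rose and 0 fell. Of 5 endothelium markers 1 rose and 0 fell with BaP, and of 3 red cell markers 1 rose and 0 fell. With DMBA, 1 of 10 oocyte markers fell and 0 rose, and no granulosa, stromal, endothelium or red cell marker was called, beside 1.04% of all probes. The part of these cell types in the differences of Pik3cd and the other members, with either compound, was not tested.

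The other PI3K subunit genes were lower or level with BaP, none past the test. Pik3ca, which encodes p110 alpha, read 6.51, 6.58 and 6.53 with acetone, 6.68, 6.74 and 6.48 with DMBA, and 6.38, 6.50 and 6.09 with BaP. The BaP arrays lay below the acetone arrays by 0.22 in the mean (SE 0.09, adjusted p = 0.167), and the DMBA arrays overlapped acetone. Pik3r1 encodes the regulatory subunit p85 alpha, and its brightest probe read 11.03, 10.93 and 10.87 with acetone, 10.77, 10.83 and 10.77 with DMBA, and 10.81, 10.83 and 10.67 with BaP. Neither treated group overlapped acetone, at -0.15 with DMBA (SE 0.08, adjusted p = 0.54) and -0.18 with BaP (SE 0.08, adjusted p = 0.228). A second bright Pik3r1 probe gave -0.10 and -0.19, and was called with BaP on the deposited normalized values (-0.19, limma adjusted p = 0.0493). Pik3cb (p110 beta) was at -0.19 with BaP (adjusted p = 0.194), and the 2 probes of Pik3r2 (p85 beta) at 0.07 and -0.02. Under median scaling, where probes above the floor shifted by a median of -0.28, several were called with BaP. These were the bright Pik3r1 probes (-0.60 and -0.63), Pik3cb (-0.49) and the brighter Pik3r2 probe (-0.41).

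Inppl1 encodes SHIP2, a phosphatase that removes the 5-phosphate from the PI3K product. The dimmest of its 3 probes read 8.91, 8.62 and 9.04 with acetone, 8.35, 8.42 and 8.89 with DMBA, and 8.42, 8.61 and 8.42 with BaP. It fell with BaP by 0.37 (SE 0.10, limma adjusted p = 0.0132), and was at -0.30 with DMBA (SE 0.15, adjusted p = 0.524). The lowest acetone array, 8.62, lay just above the highest BaP array, 8.61. The brighter probes of the gene, both far above the floor, differed by -0.01 and -0.02 with BaP, so the probes of this gene disagree.

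Below PI3K, the kinase genes did not move together. Pdpk1, which encodes PDK1, the kinase that activates AKT and SGK, had a brightest probe at 8.47, 8.44 and 8.47 with acetone, 8.48, 8.32 and 8.54 with DMBA, and 8.71, 8.52 and 8.72 with BaP. BaP arrays lay above acetone arrays by 0.19 in the mean (SE 0.08, adjusted p = 0.188), and a second probe gave 0.17. Akt1 stood at the floor, with 6.11, 6.14 and 6.13 in acetone, 6.30, 6.14 and 6.03 in DMBA and 6.07, 6.15 and 6.15 in BaP. At that level no difference could be read for it, and the brighter probe of Akt2, at 6.21, also lay near the floor. Stk11, the kinase LKB1 that activates AMPK, differed by 0.05 with each compound.

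Sgk1, a PDK1-activated kinase related to AKT, was called with BaP, while Akt1, Akt2 and Pdpk1 were not. It read 10.01, 10.02 and 9.97 with acetone, 9.87, 9.71 and 9.21 with DMBA, and 9.57, 9.63 and 9.83 with BaP. No treated array reached the lowest acetone array. Sgk1 fell with BaP by 0.32 (SE 0.09, 1.25-fold, limma adjusted p = 0.0154), and with DMBA it was at -0.40 (SE 0.14, adjusted p = 0.292). The BaP call was lost in 4 of 6 fits that left out 1 array (without acetone replicate 1 or 2, or BaP replicate 1 or 2), with adjusted p up to 0.0801, and with all 9 arrays in a single fit (0.197).

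Foxo3, the gatekeeper of follicle dormancy, had a single probe below the floor. It read 6.23, 5.81 and 5.92 with acetone, 6.04, 5.88 and 6.17 with DMBA, and 5.90, 6.05 and 6.11 with BaP, where a change in the transcript could go unseen. Gsk3b, another AKT substrate, was above the floor and differed by 0.08 with DMBA and -0.04 with BaP.

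Cdkn1b encodes p27, a cell cycle inhibitor that FOXO factors induce and that also restrains follicle activation in mice. Its brightest probe, at a mean of 6.48, read 6.33 on all 3 acetone arrays, 6.47, 6.29 and 6.60 with DMBA, and 6.61, 6.69 and 6.67 with BaP. Every BaP array exceeded every acetone and DMBA array. Cdkn1b rose with BaP by 0.33 (SE 0.08, 1.26-fold, limma adjusted p = 0.0078), and was at 0.13 with DMBA (SE 0.09, adjusted p = 0.712). Median scaling left 0.24 with BaP (adjusted p = 0.0704). A second probe, near the floor at 6.19 and above it on 6 of 9 arrays, was called with neither compound. It was at 0.24 with DMBA (SE 0.08, adjusted p = 0.262) and 0.01 with BaP, so the BaP rise rests on the brightest probe alone.

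**Figure D2:**
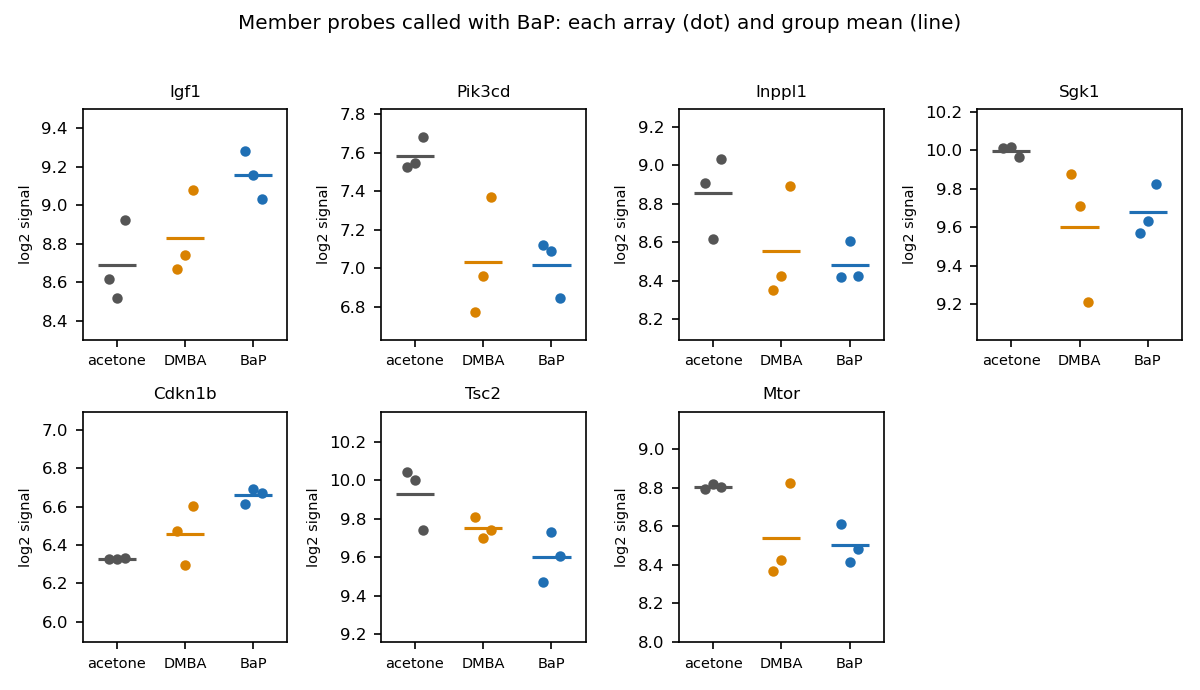
Log2 signal (y axis) of the 7 member probes called with BaP, by group, each dot 1 array and each line a group mean. BaP arrays do not overlap acetone arrays in any panel, and DMBA arrays overlap acetone arrays in all panels but those of Pik3cd and Sgk1. The y axes differ between panels. Under median scaling the rise of Igf1 turned to -0.02.

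The TSC complex, TSC1 with TSC2, turns off RHEB, the GTPase that activates mTORC1. Both Tsc2 probes were bright. The brighter read 10.21, 10.15 and 9.99 with acetone, 10.03, 9.87 and 9.91 with DMBA, and 9.81, 9.94 and 9.89 with BaP. The other read 10.04, 10.00 and 9.74 with acetone, 9.81, 9.70 and 9.74 with DMBA, and 9.47, 9.73 and 9.61 with BaP. On both probes the BaP arrays lay below all acetone arrays. The second fell with BaP by 0.33 (SE 0.09, limma adjusted p = 0.0239), while the first was at -0.23 (SE 0.09, adjusted p = 0.088), and both were at -0.18 with DMBA. The call was lost without acetone replicate 1 (adjusted p = 0.141), acetone replicate 2 (0.146) or BaP replicate 1 (0.11). Tsc1 read 6.48, 6.73 and 6.64 with acetone, 6.51, 6.58 and 6.77 with DMBA, and 6.67, 6.72 and 6.35 with BaP, with full overlap. The brighter probe of Rheb differed by -0.01 with DMBA and -0.04 with BaP.

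Mtor, the kinase of both mTOR complexes, read 8.79, 8.82 and 8.80 with acetone, 8.36, 8.42 and 8.83 with DMBA, and 8.61, 8.41 and 8.48 with BaP. The BaP arrays and DMBA replicates 1 and 2 were lower than all acetone arrays, and DMBA replicate 3 was not. Mtor fell with BaP by 0.30 (SE 0.08, 1.24-fold, limma adjusted p = 0.0177), and was at -0.27 with DMBA (SE 0.11, adjusted p = 0.426). The BaP call was lost without acetone replicate 1 (adjusted p = 0.0506), acetone replicate 2 (0.0849) or BaP replicate 2 (0.0898). It was also lost with all 9 arrays in a single fit (0.122), as were those of Tsc2 (0.0584) and Inppl1 (0.13). The Inppl1 call was lost without acetone replicate 1 (0.0659) or 3 (0.105) too. Rictor, the mTORC2 scaffold gene, was at -0.39 with DMBA (SE 0.14, adjusted p = 0.318) and -0.20 with BaP (SE 0.08, adjusted p = 0.151), with no overlap with acetone in either group.

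Downstream of mTORC1, the S6 kinases and the 4E-BP translation repressors are its best known substrates. Rps6kb1 (S6K1) had 1 of 4 probes above the floor, at 6.23, 6.25 and 6.27 with acetone, 6.14, 6.23 and 6.35 with DMBA, and 6.16, 6.02 and 6.22 with BaP, differences of -0.01 and -0.12. Eif4ebp1 (4E-BP1) read 10.31 on all 3 acetone arrays, 10.52, 10.26 and 10.27 with DMBA, and 10.46, 10.14 and 9.95 with BaP. The treated arrays fell on either side of acetone, at 0.04 with DMBA and -0.13 with BaP (SE 0.10, adjusted p = 0.533). Eif4ebp2 (4E-BP2) was at 0.33 with BaP (SE 0.11, adjusted p = 0.0516), with overlapping groups. It was called in 4 alternatives: the brightest probe per gene (adjusted p = 0.045), probes above the floor (0.0387), and without acetone replicate 3 (0.00945) or BaP replicate 2 (0.0192). Eif4e, the cap-binding protein that the 4E-BPs hold, differed by -0.06 and -0.12.

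The compounds were also set against each other directly, at doses that differ (50 nM and 1 uM). Of 50 member probes, 0 were called between BaP and DMBA, where 1.13% of all probes were (290, with 131 higher and 159 lower in BaP). At an unadjusted p under 0.05 there were 5 member probes (10%), beside 10.7% of all probes. The BaP and DMBA arrays did not overlap in 4 (8%), beside 15.9% of all probes. The directions of the array as a whole depended on the scaling, with 85 higher and 2859 lower under median scaling, of which 4 lower were members. Igf1 was 0.33 higher with BaP than with DMBA (95% interval 0.07 to 0.58, adjusted p = 0.293), and Pik3ca was at -0.31 (-0.56 to -0.06, adjusted p = 0.332). For Pik3cd the difference was -0.01 (-0.32 to 0.29), for Sgk1 0.08 (-0.24 to 0.40) and for Mtor -0.04 (-0.30 to 0.22). The intervals of Pik3cd, Sgk1 and Mtor leave room for a difference of either sign. For 35 of the 37 probes above the floor the interval lay within 0.5 log2 units of 0, against 30 for DMBA and 32 for BaP against acetone. Without DMBA replicate 3, Igf1 (0.45) and Pik3ca (-0.39) were called between the compounds.

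Genes around the members were counted in 3 further lists. Of the other PI3K, AKT and phosphoinositide genes, 43 of 46 were measured with 72 probes. With DMBA 2 probes rose and 0 fell (2.78%, beside 1.04% of all probes), and with BaP 7 rose and 5 fell (16.7%, beside 9.88% of all probes and 16.4% of those above the floor). Igf2, the fetal insulin-like growth factor, read 9.87, 9.81 and 9.96 with acetone, 10.36, 10.24 and 10.41 with DMBA, and 10.93, 11.00 and 11.03 with BaP. The 3 groups did not overlap. Igf2 rose by 0.45 with DMBA (SE 0.08, limma adjusted p = 0.0265) and by 1.10 with BaP (SE 0.08, adjusted p = 6.43e-10). The BaP level exceeded the DMBA level by 0.65 (SE 0.08, adjusted p = 0.00295). With median scaling the BaP rise was 0.67 and still called, the DMBA rise was 0.33 (adjusted p = 0.854) and the difference between compounds 0.33 (adjusted p = 0.0833). The DMBA call was also lost without any of the 3 acetone arrays or DMBA replicate 2 (adjusted p up to 0.2).

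Igfbp3, a carrier that binds IGF1 and IGF2, followed with 6.91, 6.80 and 6.76 in acetone, 7.24, 7.14 and 7.34 in DMBA, and 7.49, 7.75 and 7.77 in BaP. It rose by 0.42 with DMBA (SE 0.08, limma adjusted p = 0.0426) and by 0.85 with BaP (SE 0.09, adjusted p = 2.36e-07). The DMBA call held in 3 of 13 alternatives and the BaP call in all 13. Between the compounds Igfbp3 was 0.43 higher with BaP, which was not called (adjusted p = 0.0729), and 0.12 higher under median scaling. Other genes that rose with BaP were those of the IGF carrier Igfbp4 (0.55), the kinase Pkn2 (0.49) and Sgk3 (0.35), and the carrier Igfbp2 fell by 0.46. Other probes of these genes above the floor gave -0.03 for Igfbp4, -0.09 for Igfbp2, 0.18 and -0.02 for Pkn2, and 0.19, 0.12 and 0.10 for Sgk3. Median scaling ended the calls of Igfbp4 (0.19) and Pkn2 (0.08), and the Sgk3 call was lost without BaP replicate 3 (adjusted p = 0.0516). With DMBA these probes of Igfbp4 were at 0.19, of Pkn2 at 0.29, of Sgk3 at 0.23 and of Igfbp2 at -0.06, none called.

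Of the other mTOR complex, energy-sensing and translation genes, 57 of 59 were measured with 82 probes. With DMBA 1 probe rose and 0 fell (1.22%, beside 1.04%), and with BaP 8 rose and 3 fell (13.4%, beside 9.88%, or 16.4% above the floor). The DMBA probe was that of Eif4b, a helicase cofactor in translation that S6 kinase phosphorylates. Eif4b read 7.54, 7.55 and 7.47 with acetone, 8.29, 8.19 and 8.26 with DMBA, and 8.16, 7.95 and 7.90 with BaP. It rose by 0.73 with DMBA (SE 0.07, limma adjusted p = 0.00239) and by 0.48 with BaP (SE 0.09, adjusted p = 4.00e-04). Neither treated group overlapped acetone, and median scaling left 0.71 with DMBA (adjusted p = 0.16) and 0.10 with BaP (adjusted p = 0.567).

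Deptor encodes a protein that binds and inhibits mTOR. It read 8.19, 8.35 and 8.51 with acetone, 8.19, 8.21 and 8.43 with DMBA, and 7.82, 7.79 and 7.91 with BaP. Deptor fell with BaP by 0.51 (SE 0.09, limma adjusted p = 3.04e-04), was at -0.08 with DMBA, and was lower with BaP than with DMBA by 0.43 (adjusted p = 0.0486). All 3 BaP arrays lay below every other array on this probe, and a second probe near the floor gave -0.11 with BaP. Pdcd4, a translation inhibitor that S6 kinase marks for destruction, rose with BaP by 0.52 (adjusted p = 9.38e-05) and was at 0.57 with DMBA (adjusted p = 0.0711). Probes of the elongation factor gene Eef2 (0.58 and 0.35), the cap-binding homologue Eif4e2 (0.42) and the mTORC1 inhibitor Sesn2 (0.41) rose with BaP. Under median scaling these came to 0.13 and -0.06 for Eef2, 0.05 for Eif4e2 and 0.23 for Sesn2, none called. The brightest Eif4e2 probe was at -0.06 and a second Sesn2 probe, at the floor, at 0.09. The Eef2 call at 0.35 was kept in 3 of 6 fits that left out 1 array, and lost with all 9 arrays in a single fit (limma adjusted p = 0.236). With DMBA the 2 Eef2 probes were at 0.73 and 0.71 (adjusted p = 0.0559 and 0.0871). Both were called with DMBA when all 9 arrays were in a single fit (0.0145 and 0.0224). Sesn2 was at 0.37 with DMBA (adjusted p = 0.153) and Eif4e2 at 0.04.

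Of FOXO factors and their commonly cited targets, 38 of 39 were measured with 61 probes. With DMBA 2 probes rose and 0 fell (3.28%, beside 1.04%), and with BaP 8 rose and 2 fell (16.4%, beside 9.88%, or the same 16.4% above the floor). The list was not split into genes that FOXO factors induce and genes they repress, so these counts give no direction of FOXO activity. Both DMBA probes belong to Cdkn1a, the p21 cell cycle inhibitor gene, which p53 also induces. Its brightest probe read 8.65, 8.81 and 8.62 with acetone, 9.91, 9.81 and 10.32 with DMBA, and 10.00, 9.93 and 9.93 with BaP. It rose by 1.32 with DMBA (SE 0.12, limma adjusted p = 0.00157) and by 1.26 with BaP (SE 0.08, adjusted p = 6.73e-11). The other Cdkn1a probes gave 0.83 and 0.73 with DMBA (the second at an adjusted p of 0.0607) and 0.63 and 0.95 with BaP. The 8 probes that rose with BaP include all of these Cdkn1a probes, so they stand for fewer than 8 genes. Under median scaling the DMBA rise of the brightest probe was 1.22 (adjusted p = 0.0556) and that of the 0.83 probe 0.80 (adjusted p = 0.0672), and the BaP value of 0.63 came to 0.22 (adjusted p = 0.18), so these calls were lost.

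Ccng2, an atypical cyclin gene that FOXO factors induce in cells at rest, read 6.34, 6.35 and 6.34 with acetone, 6.36, 6.33 and 6.35 with DMBA, and 6.94, 6.78 and 7.10 with BaP. It rose with BaP by 0.60 (SE 0.09, limma adjusted p = 3.32e-05), with 0.00 for DMBA, and differed between the compounds by 0.59 (adjusted p = 0.00942). The cyclin gene Ccnd2 (0.67) and the repressor gene Bcl6 (0.29) rose with BaP. Txnip, which binds thioredoxin, fell by 0.37, and the stress gene Gadd45b fell by 0.35. Median scaling brought Ccnd2 to 0.19 and turned Bcl6 to -0.20. With DMBA Ccnd2 was at 0.45 (limma adjusted p = 0.311), Bcl6 at 0.18, Txnip at -0.004 and Gadd45b at 0.03, none called. Single arrays left out ended the calls of Txnip (acetone replicate 2, adjusted p = 0.0552), Gadd45b (acetone replicate 3 or BaP replicate 3, up to 0.111) and Bcl6 (5 of 6 arrays, up to 0.125).

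**Figure D3:**
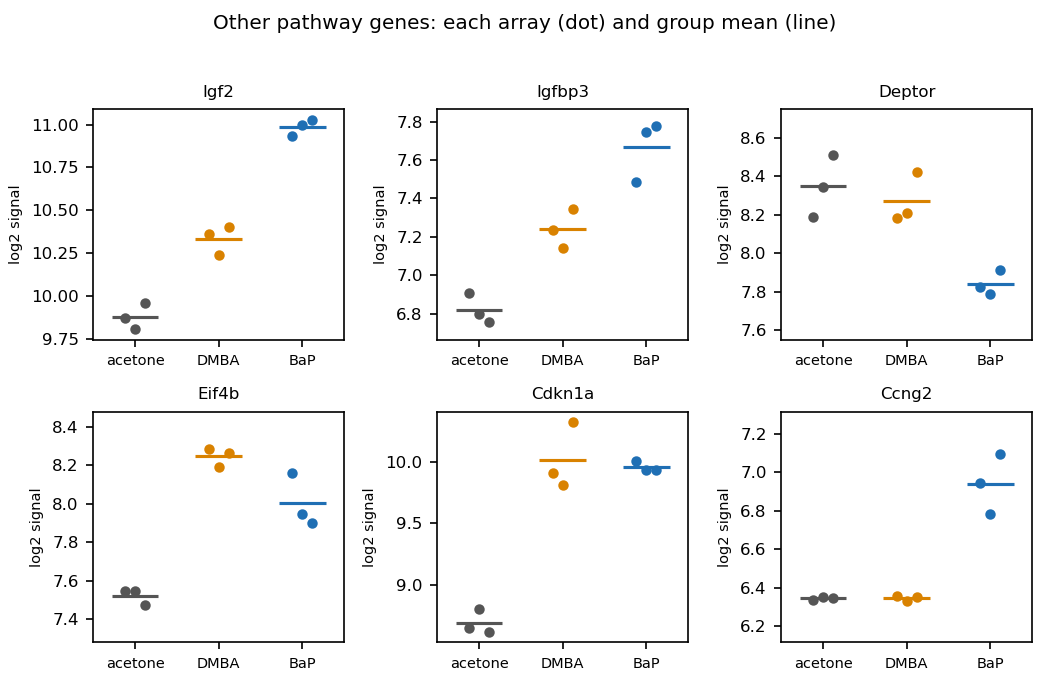
Log2 signal (y axis) of 6 genes near the pathway, by group, each dot 1 array and each line a group mean, with y axes that differ between panels. Igf2 and Igfbp3 step up from acetone to DMBA to BaP, Eif4b and Cdkn1a are higher in both treated groups, and Deptor and Ccng2 differ in the BaP arrays alone. The Igfbp3 step from DMBA to BaP was not called (0.43, limma adjusted p = 0.0729). Median scaling turned none of these directions, but it ended the DMBA calls of Igf2, Igfbp3 and Cdkn1a and both calls of Eif4b. It also ended the call of the Igf2 step from DMBA to BaP.

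In the authors' deposited table, which gives an unadjusted p per probe, 8 member probes had p under 0.05 in the DMBA comparison, 7 of them lower than acetone and 1 higher (16%, beside 11.5% of all probes). The BaP comparison of the authors' deposited table had 10, with 7 lower and 3 higher (20%, beside 17.9% of all probes). In the authors' deposited table the largest fold of a member was 1.36 for DMBA and 1.37 for BaP, both Pik3cd, so none reached 1.5.

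**Figure D4:**
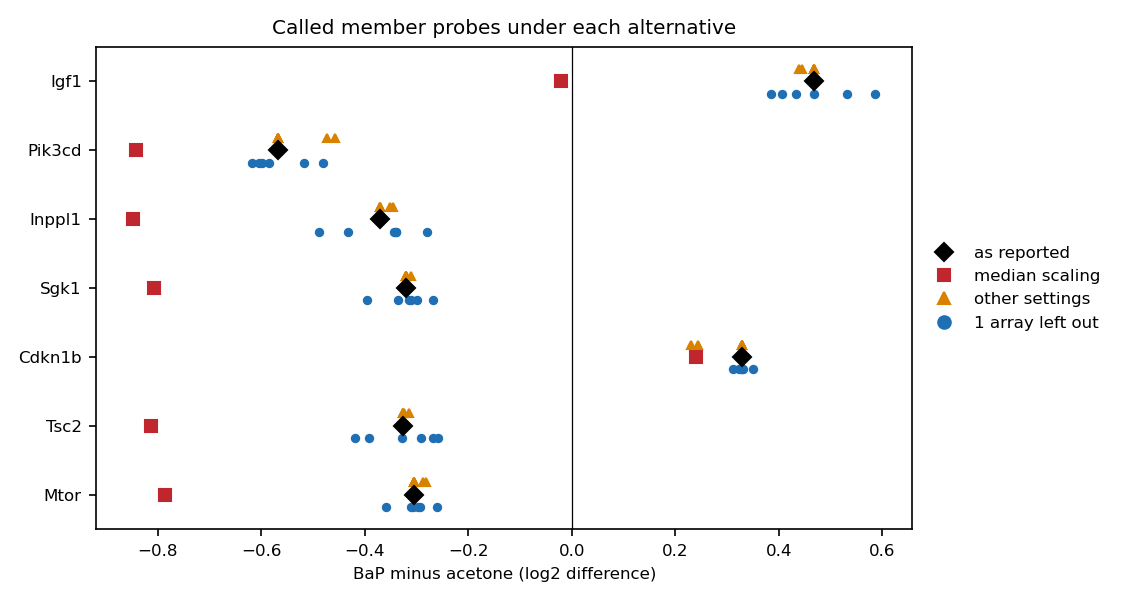
Difference of the 7 called member probes between BaP and acetone (log2, x axis) as reported (black), under median scaling (red), under the other settings (orange) and with 1 array left out (blue). Igf1 moves from 0.47 to -0.02 under median scaling, and the 5 lower probes move further from 0. Probes above the floor shifted by a median of -0.28 under that scaling. Each lower probe keeps its sign in all settings, but Sgk1, Tsc2, Inppl1 and Mtor lose their calls in some of them.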

How the data were processed

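The authors deposited each probe's intensity before normalization, on a linear scale and without detection p-values. They also deposited normalized log2 values for these arrays. The submitters' processing notes name lumi. For every probe, the authors' deposited reports list an unadjusted p-value and the ratio of the acetone level to the compound's. The scanner's own background treatment and the model behind those p-values are not given in the sources used here.

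Probes carry no gene name in the value tables. A probe took the gene name of the report row that gave, on the log2 scale, the same differences between group means for DMBA and BaP (within 0.0001, the next row at least 5 times farther), which named 25649 of 25697 probes. Names were updated through GRCm38.p6. Background was removed from the intensities by normexp (offset 50), followed by quantile normalization of the 9 arrays together and the log2 scale. All probes were tested with limma (version 3.58.1, lmFit and eBayes, two-sided) in R (4.3.3), for each comparison on the 6 arrays of its groups. P-values were adjusted by the Benjamini-Hochberg method, at a threshold of 0.05. Python (3.11.15) ran the remaining steps, through pandas (2.3.3), numpy (2.4.6), scipy (1.17.1) and matplotlib (3.10.9). The fit was tested on simulated data. The number of arrays limits the precision: the 95% interval of a member probe above the floor reached to either side by 0.158 to 0.322 with DMBA and 0.166 to 0.22 with BaP.

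The members, the lists of other genes, the motifs and the tests were chosen with earlier results of these data known. Every array is given for called member probes and for the brightest probe of 13 panel genes, and up to 6 genes of each list are named per comparison, by size among called probes above the floor. The alternatives changed the scaling, background correction, probes fitted, arrays in the fit and replicates.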

Additional observations from a re-analysis of the deposited data

Results flagged for a closer look

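No member probe differed between the compounds by the direct test, and 4 genes around the pathway did. Igf2 was higher with BaP than with DMBA by 0.6495 on the log2 scale, a call kept in 12 of 13 alternatives. Ccng2 was higher by 0.594, a call kept in 10 of 13. Deptor was lower with BaP, at -0.4325, a call kept in 5 of 13. Eif4e2 was higher by 0.3778, a call kept in 4 of 12. The doses differed (50 nM DMBA and 1 uM BaP), so compound and dose cannot be told apart. Groups of 3 arrays were too small for a test of single outlying arrays.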

How the results depend on the processing

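Counts of called probes under the alternatives are given here, in the order all probes, members, then the lists of other PI3K and AKT genes, other mTOR and translation genes, and FOXO genes. Leaving out 1 array at a time gave 24 to 1130, 0 to 3, 0 to 8, 1 to 7 and 1 to 7 with DMBA. With BaP it gave 1468 to 2404, 3 to 8, 7 to 12, 6 to 12 and 7 to 10. Between the compounds it gave 72 to 903, 0 to 2, 1 to 6, 0 to 3 and 0 to 5. Every limma fit here pooled the spread of a probe over its groups, also where an array left out left 2 in its group.

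Median scaling gave 4, 0, 0, 0 and 0 with DMBA, 6483, 18, 22, 41 and 19 with BaP, and 2944, 4, 9, 23 and 11 between the compounds. It turned called BaP differences of Igf1 to -0.0205, of Bcl6 to -0.2029 and of 1 Eef2 probe to -0.0556. All 9 arrays in a single fit gave 455 probes, 1 member and 4 mTOR and translation probes with DMBA. The same fit gave 1495 probes, 3 members and 7 PI3K and AKT probes with BaP, and 530 probes, 4 PI3K and AKT probes and 2 FOXO probes between the compounds. With no background correction 149 probes were called with DMBA, and 1 mTOR and translation and 2 FOXO probes between the compounds. The deposited log2 values gave 126 probes and 1 FOXO probe with DMBA, and 1 mTOR and translation and 2 FOXO probes between the compounds. The brightest probe per gene left 1 FOXO probe with DMBA and 1 mTOR and translation probe between the compounds. Probes above the floor gave 1 PI3K and AKT probe with DMBA and 0 mTOR and translation probes between the compounds. The causes of these changes were not tested.

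Same-numbered arrays deviated from their group means with correlations of -0.181 to 0.131, and arrays of different number with -0.131 to 0.18. Ranges this alike cannot show whether the replicate numbers pair the samples, which the labels do not state. With the replicate block, 1 member (Pik3cd, adjusted p = 0.0298), 1 PI3K and AKT probe and 2 mTOR and translation probes were called with DMBA, and 148 probes and 0 mTOR and translation probes between the compounds. The other counts under the block stayed within 1.5 times those reported.

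The BaP differences of the 38 probes named were followed under the alternatives. Called differences kept call and sign, or uncalled ones stayed uncalled with a shift smaller than their SD, 434 times. Uncalled differences could change sign within these. The call was lost 43 times (3 of these with the sign turned) and gained 6 times. An uncalled difference shifted by at least its SD 2 times. The 99th percentile as the floor (6.252) left 32 member probes above it. Blocking on the chip was not run because the headers name no chips.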
